A study of Mus musculus with 24 samples.

Results

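Rab proteins form the largest branch of the Ras-like small GTPases. Each Rab marks a membrane compartment, cycles between a GTP-bound and a GDP-bound form, and recruits the tethers, motors and fusion factors that move vesicles to and from that compartment. Some Rabs run transport steps that every cell needs, while others serve specialised carriers such as synaptic vesicles, secretory granules, primary cilia or the melanosomes of pigment cells, where *Rab27a*, *Rab32* and *Rab38* act. The 49 mouse Rab genes described here were listed by family name and not by their values, but with earlier results of these data known. Rab genes outside this list were not examined. Of the 49, 48 (all but *Rab36*) had probes on the array, which carried 45616 genes and transcripts in all. These 48 members had 74 probes, 24 members had several, and each was represented by its brightest probe.

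The study used syngeneic mouse models in which tumour cells persist after immunotherapy, and asked how cells isolated from such minimal residual disease differ from the cells injected. RNA of cultured lines was measured on 24 one-colour arrays. Melanoma was represented by the parental line B16-M, GFP-expressing B16-F1 cells (3 arrays). The dormant line B16-D was isolated from mice long after the tumour was controlled (4 arrays). B16-D-733 (4), B16-D-735 (3) and B16-D-739 (3) were taken here as the second-generation lines from the brain that the study describes. Their labels name neither the brain nor a generation, and they are called brain-derived below on that reading. Leukemia was represented by M0-p20 (4 arrays), taken here as the parental myeloid DA1-3b line because the study describes a single leukemia comparison, and by the dormant line J365-p20 (3). Each dormant population was amplified in vitro before RNA extraction and is 1 line, so differences between lines are differences between these cultures. The study says that each experiment was repeated 3 times, but not that arrays of a line came from separate cultures. The p-values here therefore measure the spread between these arrays, which may be technical. The titles of 2 B16-D-733 arrays carry the same replicate number. They lie on the same slide, are the closest pair of all arrays of one line (median absolute log2 difference 0.146) and are counted here as replicates 1 and 3. Without replicate 3, 4 members passed in B16-D-733 minus B16-M (*Rab15*, *Rab19*, *Rab32* and *Rab5b*), and without replicate 1, 5 passed. The titles of replicates 1, 2 and 3 of B16-D and of B16-D-733 carry a date that no other title has. What it dates is not stated. It sets most arrays of these lines apart from the other lines, and its part in their differences was not tested.

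Signals are given as log2 of the background-subtracted spot intensity minus the 75th percentile of the array, so that a value of 0 lies at that percentile. A probe was detected in a line when the scanner software called it well above background on at least 50% of the line's arrays. On 23 arrays between 46.0% and 55.8% of spots were well above background, whereas B16-D replicate 2 had 90.3% and was left out of the values below unless named. All 8 melanocyte markers were detected in every melanoma line, and 9 of 10 haematopoietic markers in both leukemia lines. The melanocyte genes *Dct*, *Tyrp1*, *Mlana* and *Slc45a2* were above background on 0 leukemia arrays, but *Mitf*, *Tyr* and *Sox10* were detected in both leukemia lines and *Pmel* in M0-p20. The leukocyte genes *Ptprc*, *Laptm5* and *Vav1* were above background on 0 melanoma arrays, but 5 or 6 of the 10 haematopoietic markers were detected in each melanoma line (*Csf2rb*, *Il3ra*, *Kit*, *Itgam*, *Coro1a* and, outside B16-D, *Cd48*).

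Most of the listed members were present in every line. Of the 48 members, 41 were detected in B16-M, 41 in B16-D, 43 in each of the 3 brain-derived lines, 39 in M0-p20 and 38 in J365-p20. Only *Rab26*, *Rab39* and *Rab40b* were detected in none of the 7 lines. Of the other 45 members, 35 (77.8%) were detected in all 7 lines, beside 68.3% of the 26588 genes and transcripts detected in any line. The 6 members detected in melanoma lines only were *Rab15*, *Rab6b*, *Rab3b*, *Rab33a*, *Rab23* and *Rab34*, and *Rab27b*, which serves granule and exosome release, was detected in the leukemia lines only. These are 13.3% and 2.22% of the 45, beside 12.1% and 9.51% of all genes, so the melanoma share lay near the background. *Rab33a* reached detection in 2 of the 5 melanoma lines.

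Members listed as housekeeping and as lineage-restricted differed in how far levels varied. These lists were drawn up by expected breadth of expression, with earlier results of these data known. The division was thus largely fixed beforehand and is no separate support, here and where the lists are compared below. All 20 members listed as housekeeping were detected in all 7 lines, against 7 of the 15 detected members listed as lineage-restricted and 8 of the 10 between them. The range of the 7 line means, on the log2 scale, had a median of 0.79 over the housekeeping members, 3.77 over the lineage-restricted members and 1.21 over all genes. Among the 5 melanoma lines alone, these medians were 0.33, 0.73 and 0.49. Ranges from 7.13 to 13.54 were seen for *Rab38*, *Rab34*, *Rab6b*, *Rab19*, *Rab37* and *Rab27b*, and all of these but *Rab37* were above background on 0 arrays of at least 1 line, so that their ranges depend on the background signal and have no order. In bulk RNA, fewer expressing cells and less RNA per cell cannot be told apart.

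**Figure D1:**
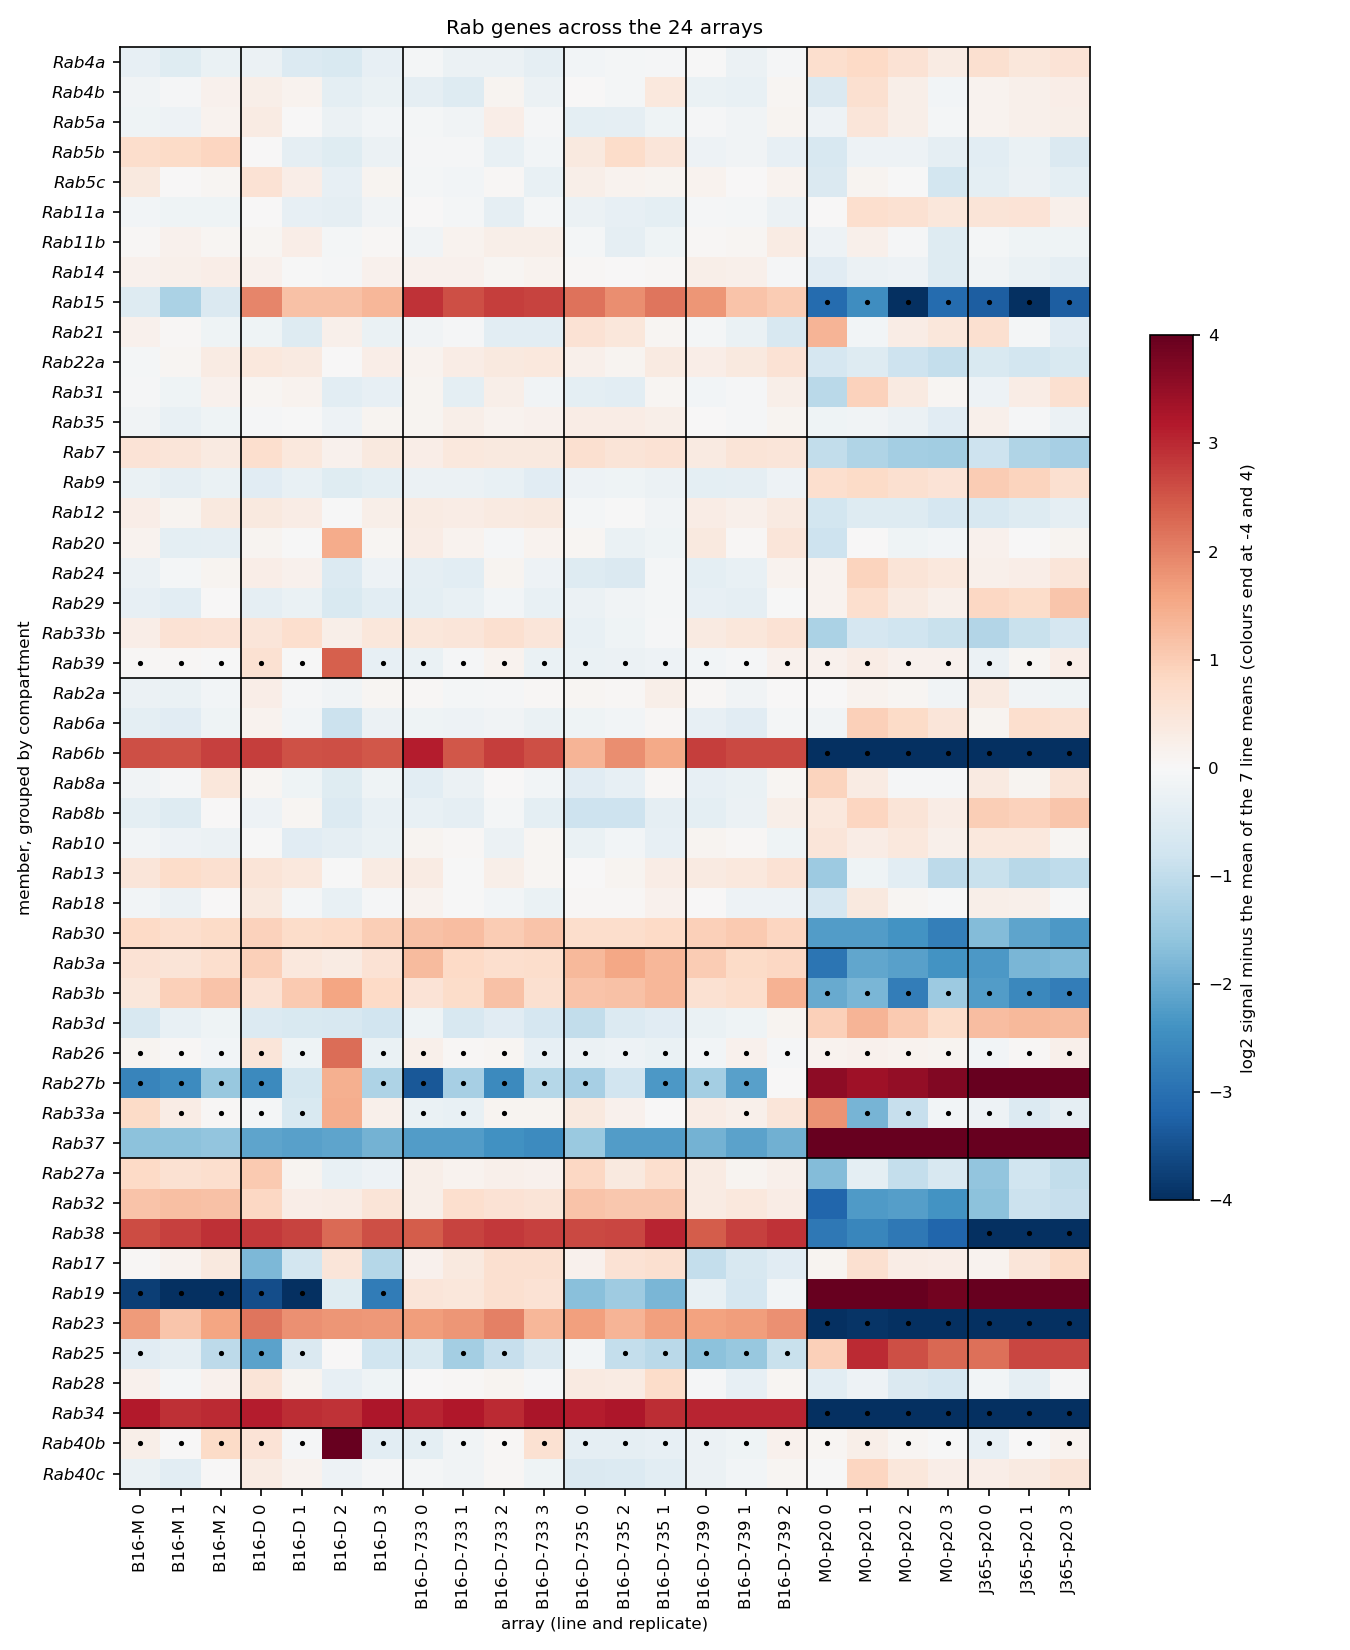
Log2 signal of 48 Rab members (rows, grouped by compartment) on 24 arrays (columns, by line), each minus the mean of the 7 line means, with colours ending at -4 and 4 and black dots where the probe was not well above background. *Rab34* and *Rab6b* are high in all melanoma arrays and at background in leukemia, *Rab37* is detected in all 7 lines and higher in leukemia, and *Rab15* and *Rab19* differ among the melanoma lines; *Rab39*, *Rab26* and *Rab40b* stand out on B16-D replicate 2 alone.

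The parental lines of the models, B16-M and M0-p20, differed in most Rabs. Of 45 members tested, 33 (73.3%) differed, beside 56.2% of all genes tested. In melanoma 19 members were higher, beside 25.2% of all genes, and 14 lower, beside 31% of all genes. The arrays of the lines did not overlap for 31 members, beside 53.9% of all genes. The median absolute log2 difference was 2.86 over lineage-restricted members, 0.56 over housekeeping members and 0.79 over all genes. It was 2.82 over lineage-restricted members with members at background set to their bound. The median difference of all genes was -0.19, so differences of that size are not particular to any member. Of the 33, the arrays of the lines overlapped for *Rab40c* and *Rab5c*, and a second *Rab40c* probe gave 0.48 where the first gave -0.61.

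*Rab34*, which acts in early ciliogenesis, had mean log2 signals of 4.60 in B16-M and -6.20 in M0-p20, where it was above background on 0 arrays, which made it at least 617-fold higher (limma adjusted p = 2.32e-19). *Rab6b*, the neuronal relative of the Golgi GTPase *Rab6a*, was at least 86.3-fold higher in B16-M (limma adjusted p = 5.37e-19), whereas *Rab6a* itself was lower by 0.84 on the log2 scale (limma adjusted p = 0.00142). *Rab23*, a negative regulator of Hedgehog signalling, was at least 9.37-fold higher. *Rab3a*, known from synaptic vesicle release, differed by 2.98 on the log2 scale, and *Rab30*, a Golgi GTPase, by 3.14. Of the broadly used members, *Rab7*, which drives transport from late endosomes to lysosomes, was 3.23-fold higher in melanoma (limma adjusted p = 8.83e-10).

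On the leukemia side, *Rab37*, a secretory granule Rab first described in mast cells, had mean log2 signals of 3.63 in M0-p20 and -3.12 in B16-M, a 108-fold difference (limma adjusted p = 1.27e-15). *Rab27b* was at least 22.6-fold higher in M0-p20 (limma adjusted p = 3.98e-08), and *Rab3d*, another granule Rab, was 2.63-fold higher. *Rab3a* and *Rab3b*, of the same list of regulated secretion, were higher in melanoma. *Rab19* was at least 69.2-fold higher in M0-p20 (limma adjusted p = 7.15e-15), and *Rab25*, a recycling Rab of epithelial cells, differed by -2.82 (limma adjusted p = 1.22e-05). *Rab4a*, of early recycling, and *Rab9*, which returns receptors from late endosomes to the Golgi, were each lower in melanoma by 0.95 on the log2 scale.

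The melanosome Rabs were all higher in B16-M than in M0-p20, and each was above background on all 4 arrays of the parental leukemia line. *Rab38*, which with *Rab32* delivers melanin-making enzymes to maturing melanosomes, had log2 signals of 6.33, 6.43 and 6.62 in B16-M and of 0.83, 1.11, 0.85 and 0.54 in M0-p20. The groups lay far apart, with a 49.5-fold difference (limma adjusted p = 3.34e-16). *Rab32* was 12.8-fold higher in B16-M (limma adjusted p = 1.66e-11). *Rab27a*, which ties melanosomes to actin through melanophilin and a myosin motor, was 3.07-fold higher (limma adjusted p = 7.25e-05). In M0-p20, *Pmel* was above background on 2 of 4 arrays, at a mean log2 signal of -4.40 against 8.47 in B16-M, and *Mlana* was above it on 0 arrays, although its mean in B16-M was 8.69.

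MITF, the master regulator of pigment cells, binds E-box letters CATGTG or CACGTG, and promoters of the members were searched for these on both strands (CATGTG also as CACATG) in RefSeq windows of 300 bases, from 250 before to 50 after a start. Such windows were given for 40 members, 49 in all, of which 12 (24.5%) held either motif, beside 20.4% of all 32851 promoters. CATGTG was held by 14.2% of all promoters and CACGTG by 7.15%. The 250 bases upstream are shown for the 2 melanosome members that have an entry and for the 2 members whose dormancy differences are described first below, on build GRCm38.p6, with motifs in capitals and the remainder in lower case.
Rab27a, inner start, chr9:73063898-73064147, plus strand: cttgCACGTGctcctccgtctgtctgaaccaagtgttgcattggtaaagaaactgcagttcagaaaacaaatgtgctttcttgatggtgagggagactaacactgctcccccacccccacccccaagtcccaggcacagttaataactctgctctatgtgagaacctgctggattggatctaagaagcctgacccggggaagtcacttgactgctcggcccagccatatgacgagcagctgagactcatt
Rab32, chr10:10558208-10558457, minus strand: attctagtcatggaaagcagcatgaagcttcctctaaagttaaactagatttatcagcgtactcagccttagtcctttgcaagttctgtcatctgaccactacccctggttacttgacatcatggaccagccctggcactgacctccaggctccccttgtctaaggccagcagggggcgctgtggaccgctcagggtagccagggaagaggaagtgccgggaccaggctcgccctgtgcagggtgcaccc
Rab15, outermost start, chr12:76822525-76822774, minus strand: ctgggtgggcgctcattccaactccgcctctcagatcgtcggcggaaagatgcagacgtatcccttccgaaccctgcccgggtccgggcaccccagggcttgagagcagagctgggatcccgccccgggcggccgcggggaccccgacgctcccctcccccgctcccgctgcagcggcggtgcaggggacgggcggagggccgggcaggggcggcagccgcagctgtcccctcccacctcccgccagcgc
Rab15, inner start, chr12:76818375-76818624, minus strand: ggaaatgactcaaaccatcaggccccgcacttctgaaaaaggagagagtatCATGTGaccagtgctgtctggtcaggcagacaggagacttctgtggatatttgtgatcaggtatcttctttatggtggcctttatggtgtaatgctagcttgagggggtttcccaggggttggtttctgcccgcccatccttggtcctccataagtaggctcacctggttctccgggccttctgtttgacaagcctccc
Rab5b, chr10:128696269-128696518, minus strand: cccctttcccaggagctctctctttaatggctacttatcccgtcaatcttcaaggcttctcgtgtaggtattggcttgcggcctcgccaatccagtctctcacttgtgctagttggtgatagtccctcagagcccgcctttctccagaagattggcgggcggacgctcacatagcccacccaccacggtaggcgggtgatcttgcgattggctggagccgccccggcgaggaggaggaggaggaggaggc
The letters occurred upstream of an inner *Rab27a* start and 2 inner *Rab15* starts, 1 of which is shown. They were not found upstream of *Rab32*, *Rab5b* or the outermost *Rab15* start. For *Rab27a* only that inner start is shown. Which start each line uses was not measured.

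The comparisons of dormant with parental melanoma asked which Rabs change with the dormant state. A few members with large differences stood out, while most of those tested did not pass. In B16-D minus B16-M, 4 of 45 members (8.89%) passed, beside 3.6% of all genes, with 1 member higher beside 2% of genes and 3 lower beside 1.6%. In a fit of these 2 lines alone 0 members passed in limma and 5 had an unadjusted p under 0.05. In B16-D-733 minus B16-M, 8 members (17.8%) passed, beside 5.57% of all genes, with 4 higher beside 3.18% and 4 lower beside 2.39%. In B16-D-735 minus B16-M, 7 (15.6%) passed beside 5.03%, with 4 higher beside 3.07% and 3 lower beside 1.97%. In B16-D-739 minus B16-M, 4 (8.89%) passed beside 3.71%, with 2 higher beside 2.15% and 2 lower beside 1.55%. Arrays did not overlap with those of B16-M for 8 of 45 members in B16-D, beside 17.3% of all genes, and for 10 in B16-D-733, beside 18.7%. They did not overlap for 18 in B16-D-735, beside 20.2% of all genes, and for 11 in B16-D-739, beside 19.5%. On this measure B16-D, B16-D-733 and B16-D-739 lay near the background. Since these 4 comparisons share the B16-M arrays, a value particular to those 3 arrays would enter each of them. If the brain-derived lines are the study's second generation of dormant cells, a change inherited from B16-D would enter them too. The 4 comparisons are thus not independent. The log2 of the summed glia markers ran from 3.33 to 3.68 in B16-M, from 2.34 to 3.04 in B16-D and from 2.69 to 3.06 in B16-D-739. The fibroblast sum ran from -0.71 to -0.40 in B16-M and from -1.82 to -1.54 in B16-D-739. The part of either in these results was not tested. The median absolute log2 difference over lineage-restricted members was 0.45, 0.27, 0.29 and 0.48 in the 4 comparisons, over housekeeping members 0.15, 0.13, 0.24 and 0.09, and over all genes 0.26, 0.20, 0.21 and 0.20. With members above background on 0 arrays of a line set to their bound, or to 0 where there was none, the lineage-restricted medians were 0.27, 0.27, 0.27 and 0.28, so that those of B16-D and B16-D-739 rest on background signals.

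**Figure D2:**
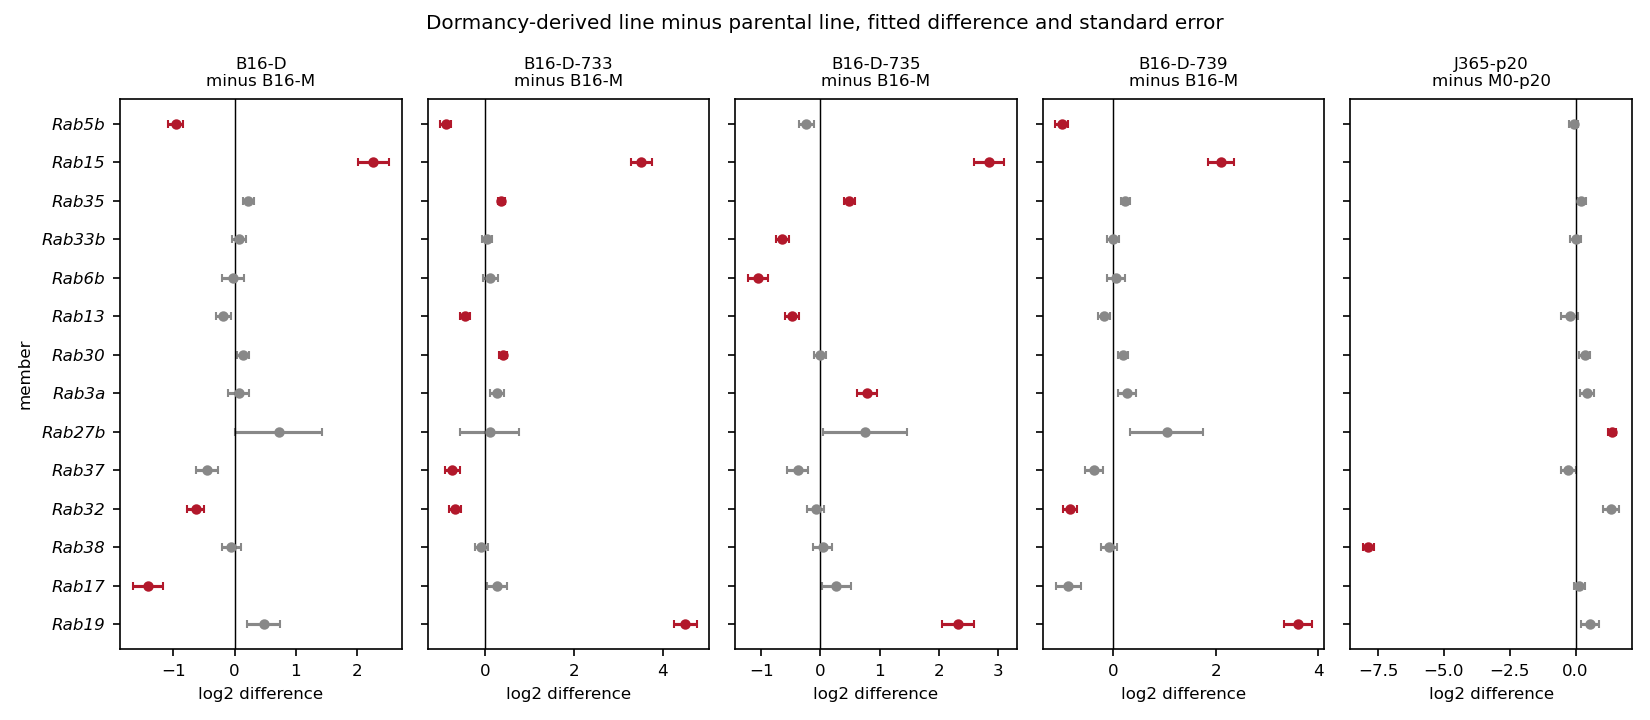
Fitted log2 difference with its standard error (points and bars) of members past the threshold in at least 1 dormancy comparison, for 4 dormant melanoma lines against B16-M and for J365-p20 against M0-p20, with red marking an adjusted p under 0.05 and each panel on its own axis. *Rab15* lies between 2.10 and 3.52 in the 4 melanoma panels, and *Rab38* is lower in leukemia at a fitted -7.87 that, like the *Rab19* points, rests on a background signal in 1 of the lines compared.

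*Rab15*, a GTPase of early and recycling endosomes, was higher in all 4 dormant melanoma lines. Its log2 signals were -3.20, -3.98 and -3.28 in B16-M and -0.75, -1.52 and -1.37 in B16-D. They were 0.18, -0.14, 0.05 and 0.02 in B16-D-733, -0.52, -0.85 and -0.55 in B16-D-735, and -0.93, -1.56 and -1.67 in B16-D-739. No dormant array reached down to the parental arrays. The difference to B16-M was 4.82-fold in B16-D (limma adjusted p = 0.000252), 11.4-fold in B16-D-733 (limma adjusted p = 9.4e-07), 7.19-fold in B16-D-735 (limma adjusted p = 1.44e-05) and 4.29-fold in B16-D-739 (limma adjusted p = 0.000274). B16-D-733 also lay above B16-D, by 1.25 ± 0.24 on the log2 scale (SE, limma adjusted p = 0.0371), a call that 11 of 18 alternative settings did not keep. A second *Rab15* probe was above background on 1 array of B16-D and on none of the other lines, and with the mean of all probes the B16-D-739 difference was 0.83 and did not pass (limma adjusted p = 0.125).

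*Rab5b*, an isoform of the GTPase that organises early endosomes, moved the other way in 3 of the 4 lines. Its log2 signals were 2.86, 2.90 and 3.00 in B16-M, 2.17, 1.78 and 1.92 in B16-D, and 1.96, 1.99 and 1.82 in B16-D-739. In B16-D-733 they lay between 1.86 and 2.11, and in B16-D-735 they were 2.55, 2.87 and 2.64. The arrays of B16-D, B16-D-733 and B16-D-739 were all below those of B16-M, whereas 1 B16-D-735 array, at 2.87, fell within the B16-M range. The fitted log2 differences were -0.96 ± 0.13 (SE, limma adjusted p = 0.0008), -0.89 ± 0.12 (limma adjusted p = 0.000435) and -0.99 ± 0.13 (limma adjusted p = 0.000373) in B16-D, B16-D-733 and B16-D-739, and -0.24 in B16-D-735 (limma adjusted p = 0.398). A second probe gave -1.17, -1.25 and -1.29 in those 3 lines and -0.36 in B16-D-735. The other *Rab5* isoforms did not pass in these 4 comparisons.

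*Rab19*, a little-studied GTPase tied to cilia and epithelial polarity, separated the brain-derived lines from both B16-M and B16-D. It was above background on 0 arrays of B16-M and of B16-D, with log2 signals from -7.14 to -6.74 and from -7.12 to -5.77. It reached -2.51, -2.51, -2.33 and -2.39 in B16-D-733, -4.65, -4.40 and -4.81 in B16-D-735, and -3.29, -3.67 and -3.08 in B16-D-739, above background on every array. Against B16-M it was at least 5.54-fold higher in B16-D-733 (limma adjusted p = 1.31e-07), at least 2.94-fold higher in B16-D-739 (limma adjusted p = 3.52e-06) and at least 1.22-fold higher in B16-D-735 (limma adjusted p = 0.000154), where normexp background correction left a difference of 0.28 (limma adjusted p = 0.224). Against B16-D the bounds were 4.98-fold (limma adjusted p = 4.4e-06), 2.65-fold (limma adjusted p = 0.000143) and 1.09-fold (limma adjusted p = 0.000893). On B16-D replicate 2 *Rab19* was above background at -3.45, and with that array the differences to B16-D of B16-D-735 and B16-D-739 no longer passed.

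Levels of *Rab19* in these lines remained far below leukemia, where it lay between 0.88 and 2.52 on all 7 arrays. The log2 of the summed haematopoietic markers ran from 2.82 to 3.26 in B16-M, from 3.17 to 3.45 in B16-D, from 3.19 to 3.36 in B16-D-733, from 3.37 to 3.60 in B16-D-735 and from 3.26 to 3.33 in B16-D-739, and their part in the result was not tested. The defining leukocyte genes *Ptprc*, *Laptm5* and *Vav1* were above background on 0 arrays of these lines. *Il3ra* had mean log2 signals of 0.91 in B16-M, 1.74 in B16-D-733, 2.38 in B16-D-735 and 2.03 in B16-D-739. It was as high in B16-D, at 2.18, where *Rab19* was at background. *Coro1a*, of the same list, went the other way, from -2.07 in B16-M to -4.22 in B16-D. It was -3.77 in B16-D-733, -2.69 in B16-D-735 and -3.75 in B16-D-739.

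*Rab17*, a GTPase of polarised recycling in epithelial cells, was lower in B16-D. Its log2 signals were -0.30, -0.22 and 0.02 in B16-M, -2.15, -1.10 and -1.50 in B16-D, and 0.14 on B16-D replicate 2. They were -0.19, 0.04, 0.30 and 0.29 in B16-D-733, -0.17, 0.23 and 0.27 in B16-D-735, and -1.32, -0.99 and -0.81 in B16-D-739. B16-D and B16-D-739 lay below all B16-M arrays, and B16-D-733 and B16-D-735 overlapped with them. B16-D was 2.68-fold below B16-M (limma adjusted p = 0.00563), while B16-D-739 at -0.87 ± 0.24 (SE) did not pass (limma adjusted p = 0.0745). B16-D-733 and B16-D-735 were both higher than B16-D by 1.69 on the log2 scale (limma adjusted p = 0.00267 and 0.000862). With replicate 2 of B16-D these calls were lost, with B16-D minus B16-M at -0.99 (limma adjusted p = 0.240). With the replicate number as a block, which the arrays of B16-D-739 and B16-M share, *Rab17* passed in B16-D-739 too.

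**Figure D3:**
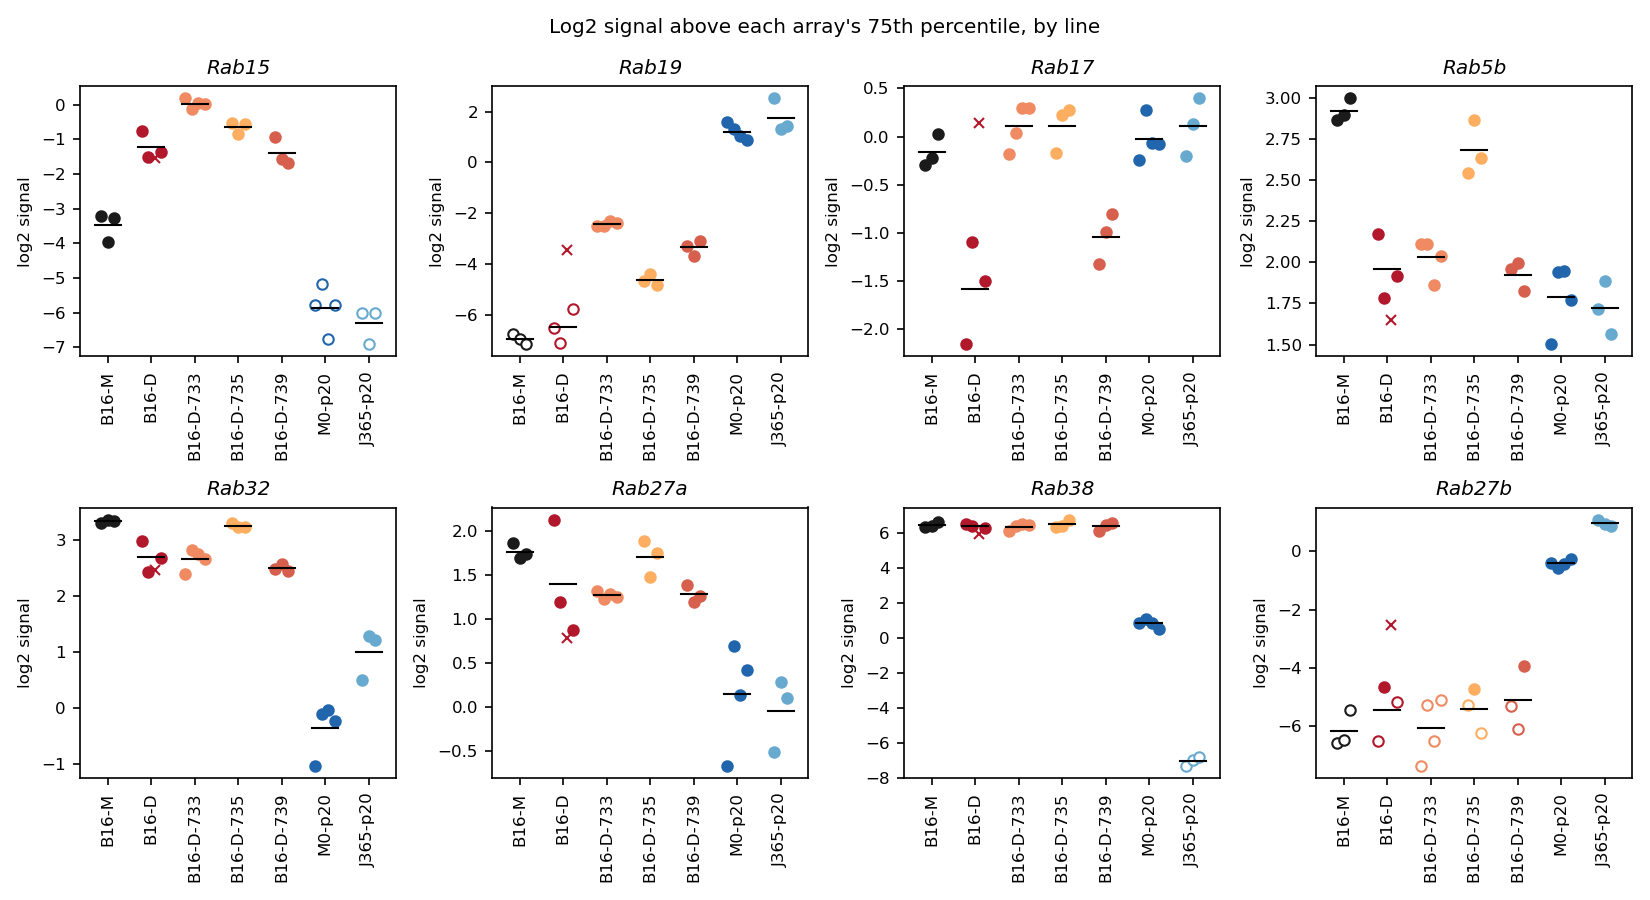
Log2 signal per array (points) for 8 Rab members in the 7 lines, with open points where the probe was not well above background, a cross for B16-D replicate 2 and bars for line means without it, each panel on its own axis. *Rab15* is lowest in B16-M among melanoma lines, *Rab19* rises above background in the brain-derived lines, and *Rab38* is at background in J365-p20.

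Of the melanosome Rabs, *Rab32* alone passed in the dormant melanoma lines. Its log2 signals were 3.30, 3.35 and 3.34 in B16-M and 2.97, 2.43 and 2.68 in B16-D. They ran from 2.39 to 2.81 in B16-D-733, were 3.30, 3.23 and 3.22 in B16-D-735, and 2.48, 2.57 and 2.44 in B16-D-739. The arrays of B16-D, B16-D-733 and B16-D-739 were below those of B16-M, and B16-D-735 overlapped with them. *Rab32* was 1.56-fold lower in B16-D (limma adjusted p = 0.022), a call that 8 of 17 alternative settings did not keep, 1.6-fold lower in B16-D-733 (limma adjusted p = 0.00679) and 1.78-fold lower in B16-D-739 (limma adjusted p = 0.00319). *Rab38* lay between 6.12 and 6.77 on all 16 melanoma arrays used and passed in no melanoma comparison. *Rab27a* had a mean of 1.77 in B16-M and of 1.27 in B16-D-733, a difference of -0.50 that did not pass (limma adjusted p = 0.265). Melanocyte markers summed to a log2 level between 10.50 and 10.75 on the arrays of the 5 melanoma lines, and none of the 8 passed in a melanoma comparison.

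*Rab6b*, *Rab33b* and *Rab3a* passed in B16-D-735 minus B16-M and in B16-D-735 minus B16-D. The log2 of the summed fibroblast markers was also higher there, from 0.13 to 0.60 against -0.71 to -0.40 in B16-M, and its part was not tested. Of that list, *Col1a1*, *Col1a2* and *Dcn* were higher. *Pdgfra* went the other way, from a mean of -3.76 in B16-M to -6.12, above background on 0 arrays of B16-D-735. *Col3a1* and *Lum* were at background in both lines. In B16-D-735, *Rab6b* had log2 signals of 0.50, 1.01 and 0.65, against 1.72, 1.69 and 1.89 in B16-M and 1.89, 1.70 and 1.63 in B16-D. The arrays did not overlap, and *Rab6b* was 2.07-fold below B16-M (limma adjusted p = 0.00261). *Rab33b*, a Golgi GTPase that binds the autophagy protein ATG16L1, had 1.08, 1.18 and 1.31 against 1.64, 1.94 and 1.92 in B16-M, a difference of -0.64 ± 0.11 (SE, limma adjusted p = 0.00478). *Rab3a* was higher, with 2.45, 2.70 and 2.48 against 1.73, 1.67 and 1.85 in B16-M, a 1.73-fold difference (limma adjusted p = 0.0145). For *Rab33b* and *Rab3a* too the arrays of the lines were apart.

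The remaining calls against B16-M were under 1 on the log2 scale. *Rab35*, which returns cargo from endosomes to the cell surface, was higher by 0.37 in B16-D-733 and by 0.49 in B16-D-735. *Rab13*, known from tight junction traffic, was lower there, at -0.46 and -0.48. In B16-D-733, *Rab30* was higher by 0.40 and *Rab37* differed by -0.73. Each of the B16-D-733 calls of *Rab13*, *Rab30*, *Rab35* and *Rab37* was lost in 7 to 10 of 18 alternative settings, and with the replicate number as a block, which pairs these lines, *Rab13* at -0.43 did not pass (limma adjusted p = 0.064). The B16-D-735 call of *Rab13* was lost in 8 of 17.

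Against B16-D, the brain-derived lines differed unequally. In B16-D-733 minus B16-D, 3 of 45 members (6.67%) passed, beside 0.481% of all genes, and these were *Rab15*, *Rab17* and *Rab19*. All 3 were higher, beside 0.411% of genes higher and 0.0699% lower, and arrays did not overlap for 8 members, beside 4.3% of all genes. In B16-D-739 minus B16-D only *Rab19* passed, 1 member (2.22%) beside 0.309%. It was higher, beside 0.23% of genes higher and 0.0782% lower, and arrays did not overlap for 2 members, beside 7.66% of all genes. In B16-D-735 minus B16-D, 10 members (22.2%) passed, beside 8.01%, of which 6 were higher, beside 4.07% of genes, and 4 lower, beside 3.94%. Arrays did not overlap for 20 members there, beside 20.3% of all genes, and in a fit of these 2 lines alone 0 members passed in limma while 11 had an unadjusted p under 0.05. Higher in B16-D-735 were *Rab5b* by 0.73, *Rab21*, which carries integrins through early endosomes, by 0.69, *Rab32* by 0.56, *Rab3a* by 0.73, *Rab17* and *Rab19*. Lower were *Rab6b* at -1.02, *Rab33b* at -0.71, *Rab40c*, a SOCS-box GTPase of a ubiquitin ligase, at -0.65, and *Rab12*, which sends the transferrin receptor to lysosomes, at -0.38. The calls of *Rab12*, *Rab21* and *Rab32* were lost in 8 to 10 of 17 alternative settings.

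The chromosomes of these members were looked up in RefSeq after their values had been seen. *Rab5b*, *Rab21* and *Rab32* are all on chromosome 10, with *Rab36* as the fourth member there, and the other genes of this chromosome moved with them. Over the 686 tested genes of chromosome 10 that are not members, the median log2 difference to B16-M was -0.26 in B16-D, -0.23 in B16-D-733, -0.24 in B16-D-739 and 0.08 in B16-D-735, and in B16-D-735 minus B16-D it was 0.35. On the other chromosomes together these medians were 0.03, 0.05, 0.04, 0.02 and 0.01. Of all 689 tested genes of chromosome 10, 80.1% were below 0 in B16-D minus B16-M, against 46.4% elsewhere.

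Array by array, the chromosome 10 median, as the deviation from the mean of the 5 melanoma lines, ran from 0.10 to 0.18 in B16-M and from 0.19 to 0.28 in B16-D-735. It ran from -0.14 to -0.07 in B16-D, from -0.13 to -0.09 in B16-D-733 and from -0.16 to -0.10 in B16-D-739. The last 3 lines overlapped with each other and with neither B16-M nor B16-D-735, and the exact permutation p was the smallest these arrays allow, 0.0286 for B16-D-733 against B16-M and 0.1 for the others. Other chromosomes reached that p too, 3 in B16-D, 12 in B16-D-733, 7 in B16-D-739 and 16 in B16-D-735 against B16-M. Their differences were at most 0.11, 0.11, 0.08 and 0.18 in size, beside -0.26, -0.27, -0.27 and 0.10 for chromosome 10. In B16-D-735, chromosome 10 was thus not the most shifted against B16-M. In B16-D-735 minus B16-D, 14 others reached it, at up to 0.26 in size beside 0.36 for chromosome 10. Beyond the median of its chromosome, *Rab5b* was still lower than in B16-M by -0.70 in B16-D, -0.66 in B16-D-733 and -0.76 in B16-D-739, and *Rab32* by -0.38, -0.45 and -0.60. In B16-D-735 minus B16-D, 0.38 of the *Rab5b* difference, 0.34 of that of *Rab21* and 0.21 of that of *Rab32* lay beyond the chromosome median. The part of the chromosome-wide shift in the result for each member was not tested. The study also measured copy number and saw no difference between dormant and parental cells for whole chromosome arms. It reported several genes as deleted in dormant melanoma cells but not in parental ones, which its statement on whole arms does not cover. Among them were *Ap3d1*, *Ass1*, *Eef2*, *Gstt3*, *Lrp1*, *Lta4h*, *Metap2*, *S100b*, *Slc25a3*, *Stx7*, *Ube2n*, *Wasf1* and *Wdr18*. The positions of these genes were not compared with the chromosome 10 shift, and the part of such deletions in it was not tested. Those copy-number data were not examined here.

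Smaller shifts of other chromosomes accompanied some B16-D-735 calls. The median difference to B16-D was -0.22 on chromosome 9, which holds *Rab6b*, -0.26 on chromosome 17, which holds *Rab12* and *Rab40c*, and -0.11 on chromosome 3, which holds *Rab33b*. Without these medians, *Rab6b* differed by -0.80, *Rab40c* by -0.39, *Rab12* by -0.12 and *Rab33b* by -0.59. Against B16-M, the medians of B16-D-735 were -0.16 on chromosome 9 and -0.15 on chromosome 3. *Rab15* is on chromosome 12, with medians of 0.04 in B16-D, 0.06 in B16-D-733, -0.15 in B16-D-735 and 0.03 in B16-D-739 against B16-M. *Rab19* is on chromosome 6, with a median of 0.10 in B16-D-735 and of 0.04 or less in the other lines, and *Rab17* on chromosome 1, with medians of at most 0.04.

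**Figure D4:**
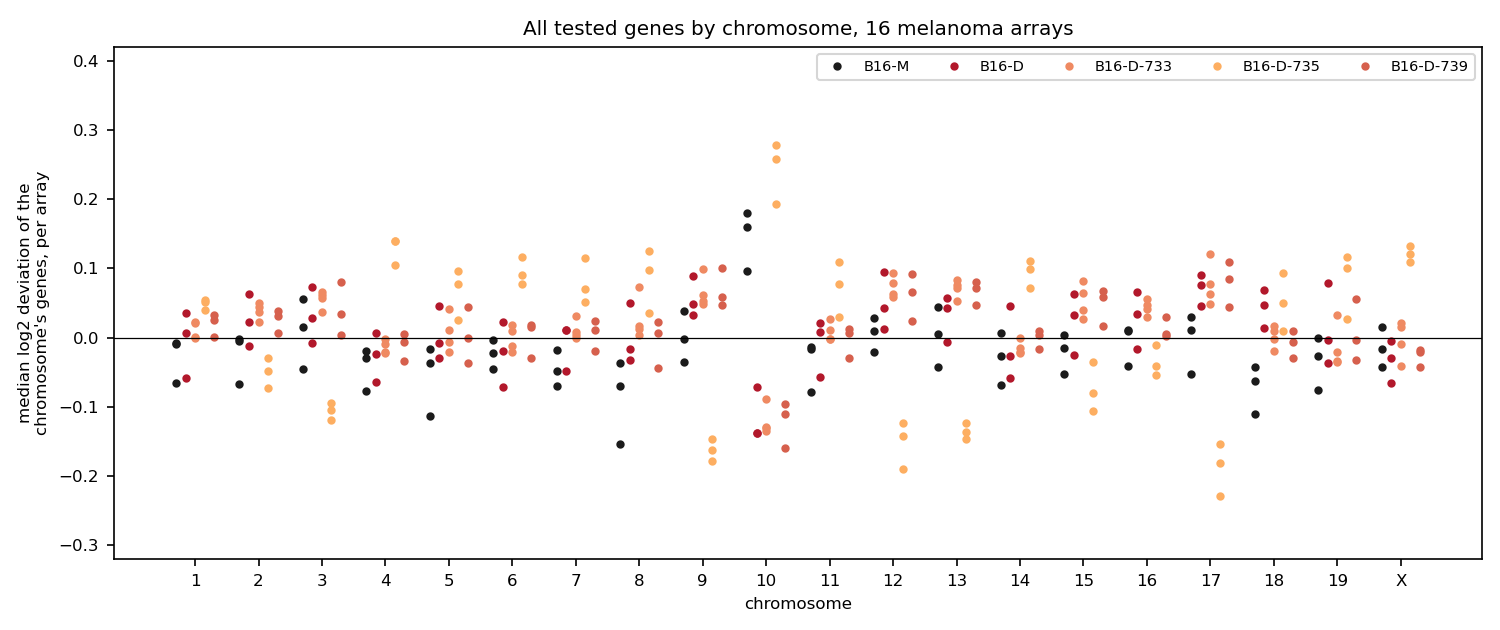
Median log2 deviation of all tested genes of a chromosome (y axis) on each of 16 melanoma arrays (points, by line), relative to the mean of the 5 line means, by chromosome (x axis). On chromosome 10 the 3 arrays of B16-M and the 3 of B16-D-735 lie above 0 and the arrays of B16-D, B16-D-733 and B16-D-739 below it.

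In leukemia, J365-p20 minus M0-p20, 2 of 39 members tested (5.13%) passed, beside 1.07% of all genes. One was higher, beside 0.488% of genes, and the other lower, beside 0.579%, and arrays did not overlap for 6 members, beside 8.3% of all genes. *Rab38* was above background on every M0-p20 array and on 0 arrays of J365-p20, where its log2 signals were -7.31, -6.99 and -6.81. It was thus at least 50.5-fold lower in the dormant line (limma adjusted p = 9.52e-06). *Rab27b* had log2 signals of -0.38, -0.56, -0.43 and -0.24 in M0-p20 and of 1.09, 0.95 and 0.86 in J365-p20. Its arrays did not overlap, and it was 2.58-fold higher in J365-p20 (limma adjusted p = 0.00574), with a second probe giving 1.43 on the log2 scale beside 1.37. That call was lost with the replicate number as a block (limma adjusted p = 0.118) and without J365-p20 replicate 1 (limma adjusted p = 0.051).

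The other melanosome Rabs were above background on every array of both leukemia lines. *Rab32* had log2 signals of -1.03, -0.10, -0.04 and -0.23 in M0-p20 and of 0.50, 1.28 and 1.22 in J365-p20. The arrays did not overlap, but the difference of 1.35 ± 0.31 (SE) did not pass (limma adjusted p = 0.174). *Rab27a* overlapped between the lines, with means of 0.15 and -0.04. The pigment regulator *Mitf* was above background on all 7 leukemia arrays, with means of 0.66 in M0-p20 and 1.83 in J365-p20. Over the lineage-restricted members the median absolute log2 difference was 0.38, over the housekeeping members 0.09 and over all genes 0.20. No chromosome median was farther from 0 than 0.10 here.

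The dormancy differences of the melanoma and leukemia models were then compared within one fit, as B16-D minus B16-M less J365-p20 minus M0-p20. Here 5 of 45 members (11.1%) passed, beside 2.28% of all genes, with 2 higher beside 1.34% of genes and 3 lower beside 0.938%. The fitted value of *Rab38* was 7.82 (limma adjusted p = 4.94e-13), which depends on the background signal in J365-p20, where the bound of its leukemia difference is 5.66 on the log2 scale, and it was 3.94 after normexp correction. *Rab32* gave -1.98 ± 0.31 (SE, limma adjusted p = 0.000749) and *Rab5b* -0.89 ± 0.20 (limma adjusted p = 0.0147). *Rab15* gave 2.69 (limma adjusted p = 0.00175), although its probe was above background on 0 leukemia arrays, and *Rab17* gave -1.56 ± 0.32 (limma adjusted p = 0.00964).

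The machinery that serves Rabs was followed through a list of 100 genes for exchange factors (GEFs), GTPase-activating proteins (GAPs), effectors and the factors that prenylate or extract Rabs from membranes. Of 93 tested in melanoma, 2 passed in B16-D, 5 in B16-D-733, 2 in B16-D-735 and 2 in B16-D-739 against B16-M, and each of these was lower. These are 2.15%, 5.38%, 2.15% and 2.15% of the list, near or below the 3.6%, 5.57%, 5.03% and 3.71% of all genes, and so are no result about the list. With the replicate number as a block, which pairs these arrays, the counts were 3 in B16-D-733 and 4 in B16-D-739. *Dennd5b*, a Rab exchange factor, was lower in all 4 lines, at -0.73 (limma adjusted p = 0.0126), -0.69 (limma adjusted p = 0.0076), -0.60 (limma adjusted p = 0.0279) and -0.61 (limma adjusted p = 0.0332), with the latter 2 calls lost in 8 of 17 alternative settings each. *Gcc2*, a golgin that captures vesicles bound for the trans-Golgi, was lower in B16-D by -0.76, in B16-D-733 by -0.82 and in B16-D-739 by -0.72. In B16-D-733, *Eea1*, the tether recruited by Rab5 to early endosomes, the actin oxidase *Mical1* and the GAP gene *Tbc1d30* were lower too, calls that were lost in 7 of 18, 9 of 18 and 11 of 17 alternative settings. Of these 5 genes, 4 are on chromosome 10, which holds 7 of the 100, and *Dennd5b* is on chromosome 6. Beyond the chromosome 10 median *Gcc2* was lower by -0.59, *Tbc1d30* by -0.54, *Eea1* by -0.40 and *Mical1* by -0.33.

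In B16-D-735 minus B16-D, 4 machinery genes were higher and 1 lower, 5.38% of 93 beside 8.01% of all genes. *Gcc2*, *Eea1* and *Tbc1d30* were among the higher ones, at 0.56, 0.59 and 0.71, of which 0.21, 0.24 and 0.36 lay beyond the chromosome 10 median, together with *Evi5l*, another GAP gene, at 0.92. The *Tbc1d30* call was lost in 12 of 16 alternative settings. *Tbc1d5*, a GAP for Rab7, was lower there at -0.67 and also against B16-M at -0.53. No machinery gene passed in limma in B16-D-733 minus B16-D, where 0 had an unadjusted p under 0.05, in B16-D-739 minus B16-D, where 3 did, or in J365-p20 minus M0-p20, where 10 of 83 did. Between the parental lines 43 of 96 machinery genes were higher and 27 lower in B16-M. These are 44.8% and 28.1%, beside 25.2% and 31% of all genes. *Mlph*, melanophilin, the effector that joins *Rab27a* to its motor, was above background on all 3 B16-M arrays and 0 of 4 M0-p20 arrays, and *Sytl3*, a granule effector of *Rab27* proteins, on 0 and 4.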

How the data were processed

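Total RNA of cultured lines was labelled with Cy3 and hybridised to Agilent mouse arrays of 62976 spots, 8 arrays on each of 3 slides. The authors deposited the intensity of each spot after background subtraction by Agilent Feature Extraction 10.7.3.1, per the file headers, with no scaling between arrays, and the deposited series table holds the same values. No scaling or test beyond GeneSpring is named in the sources used here.

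Control spots (3671) and 2468 outlier-flagged spots were left out, none was saturated, and replicate spots of a probe were averaged. Values are log2 intensity less the 75th percentile of the array. Probes were named through the accession in the files and RefSeq's gene table (GRCm38.p6), and the probe with the highest mean of the 7 line means represented each gene. The tests came from limma 3.58.1, R 4.3.3 (lmFit, eBayes, two-sided), in fits of 16 melanoma, 7 leukemia and 23 arrays, with residual degrees of freedom of 11, 5 and 16. Genes with a probe well above background on at least 3 arrays of a fit were tested, and p-values were adjusted over all of them by Benjamini and Hochberg at 0.05. Where a member was above background on no array of a line, its fold is a lower bound against the lowest signal well above background on each array. Chromosome medians were compared by exact permutation of arrays. Python 3.11.15, numpy 2.4.6, pandas 2.3.3 and matplotlib 3.10.9 handled tables and plots.

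The members, their lists and the tests were chosen with earlier results of these data known. Lists of breadth, compartment, machinery and markers came from textbook knowledge. The chromosomes were looked at after the values were seen. Alternatives were another background correction (normexp), quantile normalization, other probe choices and filters, B16-D replicate 2, the slide or replicate number as a block, fits of the lines compared alone, and each array left out.

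On simulated data with 200 changed genes, B16-D minus B16-M recovered 6% of genes changed by 0.5 on the log2 scale, 50% by 1 and 76% by 2. For J365-p20 minus M0-p20 these were 0%, 22% and 66%. In the data 876 and 245 genes passed in these comparisons, so the adjusted threshold differed and the recovery rates are only a guide. Precision is limited by the 3 or 4 arrays of a line. Replicate numbers paired B16-D-733 and B16-D-739 with B16-M. Correlations of residuals ran from 0.28 to 0.78 for the former and from 0.52 to 0.78 for the latter. In B16-D-739 and B16-M each replicate number lies on the same slide, so number and slide cannot be told apart there. Over fewer shared numbers, correlations were 0.23 and 0.62 for B16-D-735 with B16-D and 0.26 and 0.04 for B16-D with B16-M. Every other pair of lines compared had at least 1 negative value.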

Additional observations from a re-analysis of the deposited data

Results flagged for a closer look

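For 5 members, the dormancy difference of melanoma (B16-D minus B16-M) was tested directly against that of leukemia (J365-p20 minus M0-p20) and passed the threshold. *Rab38* had a fitted value of 7.82 on the log2 scale (limma adjusted p = 4.94e-13), with its probe above background on 0 arrays of J365-p20, so that the value depends on the background signal. *Rab15* gave 2.69 (limma adjusted p = 0.00175), with leukemia signals at background. *Rab17* gave -1.56 (limma adjusted p = 0.00964), *Rab32* -1.98 (limma adjusted p = 0.000749) and *Rab5b* -0.89 (limma adjusted p = 0.0147).

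In lines of 4 arrays, each member was examined for a single array far from the rest. *Rab7* in B16-D-733 replicate 0 was lowest at 3.44, beside 3.56 to 3.58 on the other 3 arrays, with 0.866 of the range taken by that gap. *Rab33b* in B16-D-733 replicate 2 was highest at 2.01, beside 1.82 to 1.85, with 0.833 of the range. These were 2 of 81 such groups, and chance alone flags about 1 in 20.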

How the results depend on the processing

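Alternatives were run for the 77 differences of single members past the threshold, and none changed sign in them. Of 1363 such values, 1227 remained past it and 136 did not. Settings in which a member went untested are not among them. In every alternative that tested them, 44 of the 77 differences passed, and most of these 44 were between the parental lines B16-M and M0-p20. No member call in B16-D minus B16-M, B16-D-735 minus B16-D or B16-D-739 minus B16-D passed in every alternative. In fits of the lines compared alone, the members past the threshold fell to 0 in B16-D minus B16-M (5 at an unadjusted p under 0.05 in limma), 4 in B16-D-735 minus B16-M, 1 in B16-D-733 minus B16-D, 0 in B16-D-735 minus B16-D (11 unadjusted) and 0 in B16-D-739 minus B16-D (2 unadjusted), with fewer residual degrees of freedom by construction. Normexp background correction gave 5 members in B16-D-733 minus B16-M and 6 in B16-D-735 minus B16-D, and no filter on dim probes gave 4 in the former. Requiring the probe above background on every array gave 0 in B16-D-739 minus B16-D (3 unadjusted), 1 in J365-p20 minus M0-p20 and 3 in the comparison of the models, since *Rab19*, *Rab38* and *Rab15* then went untested. With B16-D replicate 2 the counts were 6 in B16-D-735 minus B16-D and 0 in B16-D-739 minus B16-D (3 unadjusted). Leaving out single arrays gave 4 to 7 members in B16-D-733 minus B16-M, 6 to 10 in B16-D-735 minus B16-D and 1 to 2 in J365-p20 minus M0-p20. For the first, 4 remained without B16-M replicate 1, without B16-M replicate 2 or without B16-D-733 replicate 3, and 5 without B16-D-733 replicate 1. For the second, 6 remained without B16-D replicate 1, B16-D replicate 3 or B16-D-735 replicate 2. With the replicate number as a block, 1 member passed in J365-p20 minus M0-p20, 7 in B16-D-733 minus B16-M and 5 in B16-D-739 minus B16-M, and the machinery genes past the threshold went from 5 to 3 and from 2 to 4 in the latter 2. Over all alternatives the machinery counts ran from 0 to 5, 2 to 9, 1 to 13 and 0 to 6 in the 4 comparisons with B16-M and from 0 to 10 in B16-D-735 minus B16-D, with the highest count in B16-D-735 minus B16-M, 13, given by the slide as a block. The chromosome 10 medians kept their sign under alternatives chosen after seeing the data, between -0.28 and -0.23 in B16-D minus B16-M. Within slides, 197 of 198 differences of members past the threshold had the sign of the fit. These members were picked by their values on the same arrays, so this agreement was largely fixed beforehand and is no separate support. The cause was not tested beyond these.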
